A study of Mus musculus with 6 samples.

Results

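Genes of surface ectoderm and epithelial junctions, 10 in number, were read in the heads of mouse embryos at E10.5: Cldn6, Cldn7, Epcam, Cdh1, Krt8, Krt18, Trp63, Grhl2, Tfap2c and Esrp1. They were taken by name, as the probe sets whose platform annotation gives exactly 1 of these symbols, with no limit on brightness. Each of the 10 genes had 1 such probe set, so 10 of the 21789 probe sets with 1 gene symbol, and of 35556 in all, are described.

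The heads came from 3 embryos labelled Tasp1-/- (Taspase1 knock-out, here KO-labelled) and 3 labelled wild type (WT-labelled), all from intercrosses of Tasp1+/- parents on a C57Bl6 background. From each embryo the prosencephalon and mesencephalon, the future forebrain and midbrain, were dissected and RNA was read on 1 array. The product of Tasp1, Taspase1, is a protease with substrates that include KMT2 family histone methyltransferases and a precursor of TFIIA subunits, and the comparison asked which transcripts depend on it in the developing head. The loss, as labelled, is not limited to a tissue, and the labels do not describe the allele or say whether skin was kept on the dissected tissue. Values are the deposited log2 signals of a probe set, and each difference is the KO-labelled mean minus the WT-labelled mean, so that a difference of 1 is a doubling of signal.

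Surface ectoderm is the single sheet of epithelium that covers the embryo and gives rise to the epidermis and to the lens and nasal placodes. Its cells are held together by E-cadherin, sealed by claudins at tight junctions and braced by keratin filaments. Grainyhead-like, AP-2 and TP63 family transcription factors set up this state, ESRP splicing factors maintain epithelial isoforms, and factors of the SNAI and ZEB families repress it in mesenchyme. Most of these genes are also active in other embryonic epithelia, such as gut and yolk sac endoderm, so they mark epithelium and not surface ectoderm alone.

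All 10 probe sets carried signal above what silent genes gave. Olfactory, vomeronasal and taste receptor genes, which are not expected in an embryonic head, had 1240 probe sets with a median of 4.45 and a 95th percentile of 6.23. The means of the epithelial genes over the 6 heads were each above at least 99.4% of them, and all 10 lay above the log2 signal of 7.06 below which the dimmest 40% of probe sets fall. Signals of different probe sets are not comparable as amounts of RNA. In dissected tissue, fewer epithelial cells and less RNA per epithelial cell cannot be told apart.

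None of the 10 genes passed the test across all probe sets (limma, two-sided, Benjamini-Hochberg adjusted p from 0.448 to 0.996, threshold 0.05). The comparison as a whole gave the same count: 0 of 21789 probe sets passed (0%) in limma and 0 by ordinary least squares, against 1354 (6.21%) at an unadjusted p under 0.05 in limma. Among the 10, 3 had an unadjusted p under 0.05, with Cldn6 and Tfap2c lower in KO-labelled heads (3.89% of all probe sets were) and Cdh1 higher (2.32% were). Over the alternatives this count ran from 2 to 4. In 5 of the 10 genes the 3 KO-labelled heads all lay on one side of the 3 WT-labelled heads. Cdh1 and Trp63 were higher in this way, where 4.15% of all probe sets were, and Cldn6, Epcam and Tfap2c were lower, where 6.76% were. Over both directions this is 50% of the genes, against 10.9% of all probe sets. The genes were chosen with earlier results of these data known, so this share is a description. The median difference was −0.05 over the 10 genes and −0.01 over all probe sets, while the median size of the difference, leaving out its sign, was 0.13 over the 10 genes and 0.05 over all probe sets.

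**Figure D1:**
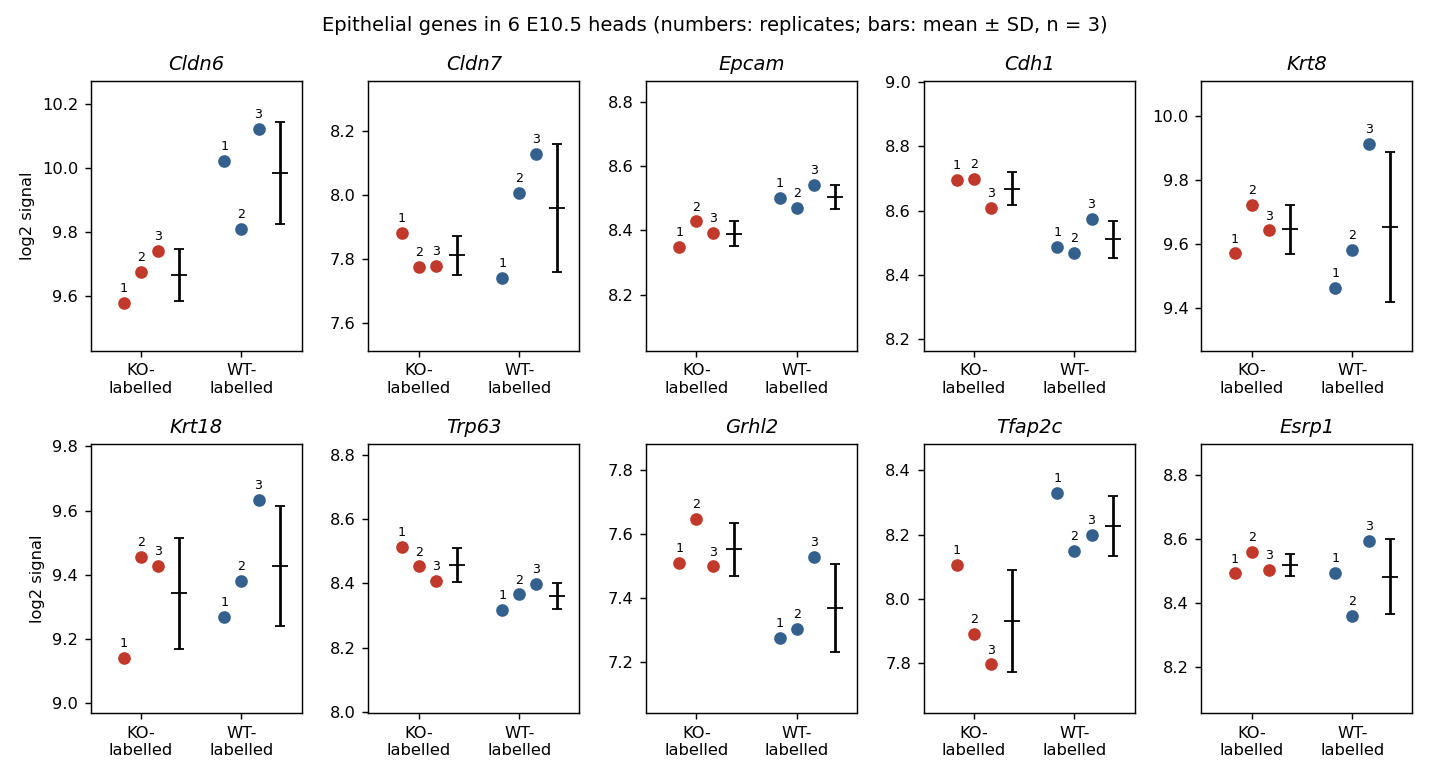
Log2 signal (vertical axes, each spanning the same width) of the 10 epithelial genes in 3 KO-labelled heads (left in each panel) and 3 WT-labelled heads (right), with replicate numbers beside the points and the mean ± SD as a bar. The groups stand apart in Cldn6, Epcam, Cdh1, Trp63 and Tfap2c and overlap in the other 5 genes.

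The 250 bases before the annotated start of 4 of these genes are shown here because they hold the letters CACCTG, an E-box that SNAI and ZEB repressors are known to bind in epithelial promoters. Cldn6 and Epcam are among the genes whose groups did not overlap, and Krt8 and Krt18 encode the partners of 1 filament. Sequences are from RefSeq, build GRCm38.p6, 5′ to 3′ on the strand of the gene, with CACCTG or its reverse complement CAGGTG in capitals.
Cldn6 (chr17:23679115-23679364, plus strand): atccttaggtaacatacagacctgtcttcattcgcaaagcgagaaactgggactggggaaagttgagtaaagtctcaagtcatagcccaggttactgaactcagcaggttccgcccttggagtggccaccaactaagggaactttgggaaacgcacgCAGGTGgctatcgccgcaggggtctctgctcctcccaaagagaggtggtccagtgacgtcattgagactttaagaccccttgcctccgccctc
Epcam (chr17:87635729-87635978, plus strand): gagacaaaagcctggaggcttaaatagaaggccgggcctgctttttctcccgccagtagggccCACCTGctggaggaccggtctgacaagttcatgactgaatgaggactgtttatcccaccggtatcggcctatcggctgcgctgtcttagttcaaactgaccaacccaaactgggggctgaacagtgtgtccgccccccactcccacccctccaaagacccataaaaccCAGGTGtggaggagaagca
Krt8 (chr15:102004343-102004592, minus strand): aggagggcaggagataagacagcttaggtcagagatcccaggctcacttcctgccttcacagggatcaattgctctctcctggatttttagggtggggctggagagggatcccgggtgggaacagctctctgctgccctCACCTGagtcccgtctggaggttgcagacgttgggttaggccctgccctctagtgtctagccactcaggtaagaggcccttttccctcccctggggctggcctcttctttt
Krt18 (chr15:102027966-102028215, plus strand): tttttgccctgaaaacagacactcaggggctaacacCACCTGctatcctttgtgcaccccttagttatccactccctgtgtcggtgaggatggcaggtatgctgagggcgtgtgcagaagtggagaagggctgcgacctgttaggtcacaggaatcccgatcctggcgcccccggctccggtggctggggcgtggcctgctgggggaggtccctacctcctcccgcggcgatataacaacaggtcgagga

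The promoter table held 5 of the 10 genes, these 4 and Cldn7, and Cdh1, Trp63, Grhl2, Tfap2c and Esrp1 were not matched. Read on both strands, CACCTG occurred in all 5, against 19.4% of all 27025 genes in the table. Cldn6 had it once, with its first base 93 bases before the start, Krt8 once at 111 bases and Krt18 once at 214 bases. Epcam had it at 187 and at 19 bases before the start. Cldn7 has 2 annotated starts, and the letters stood at 97 and 57 bases before one of them and not before the other. The letters GCCNNNGGC, an AP-2 motif, were found in Krt18 alone among the 5 (15.4% of all genes), and AACCGGTT, a grainyhead motif, in 0 of the 5 (0.137% of all genes). The AP-2 match in Krt18 did not overlap its E-box. These matches describe letters in a window and say nothing of binding.

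Claudins form the strands of tight junctions, and the 2 in the list differed in how the groups stood. Cldn6 (probe set 10442327, chromosome 17), a claudin of embryonic epithelia, read 9.58, 9.68 and 9.74 in KO-labelled heads and 10.02, 9.81 and 10.12 in WT-labelled heads. Every KO-labelled head was lower than every WT-labelled head, with the highest KO-labelled head 0.07 below the lowest WT-labelled one. The difference was −0.32 (SE 0.08, 95% confidence interval −0.49 to −0.14), 0.80 times the WT-labelled signal, with an unadjusted limma p of 0.0024 that did not pass adjustment (adjusted p = 0.448). It was the 113th smallest p among the 21789 probe sets. By ordinary least squares, which does not share variance between probe sets, the unadjusted p was 0.037 (adjusted p = 0.920). Over the alternatives the difference ran from −0.41, with Xist signal as a covariate, to −0.25, without WT 3.

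Cldn7 (probe set 10377673, chromosome 11), a claudin of many mature epithelia, read 7.88, 7.77 and 7.78 in KO-labelled heads and 7.74, 8.01 and 8.13 in WT-labelled heads. WT 1 was the lowest of all 6 heads and the other WT-labelled heads were the 2 highest, so the groups overlapped. The difference was −0.15 (SE 0.10, 95% confidence interval −0.36 to 0.07; limma adjusted p = 0.875). Without WT 1 it was −0.26 (unadjusted p 0.0083, adjusted p = 0.715), and without WT 3 it was −0.06.

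Epcam (probe set 10447383, chromosome 17) encodes an epithelial cell adhesion molecule that binds claudin-7 and steadies it in the membrane. It read 8.35, 8.43 and 8.39 in KO-labelled heads and 8.50, 8.47 and 8.54 in WT-labelled heads. The KO-labelled heads were again all lower, with 0.04 between the groups, and each group was tight (SD 0.04 in both, n = 3 each, around 8.39 for KO-labelled and 8.50 for WT-labelled heads). The difference was −0.11 (SE 0.06, 95% confidence interval −0.25 to 0.02; limma adjusted p = 0.848).

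Cdh1 (probe set 10575052, chromosome 8) encodes E-cadherin, the adhesion molecule of epithelial adherens junctions. It stood the other way round, at 8.70, 8.70 and 8.61 in KO-labelled heads and 8.49, 8.47 and 8.57 in WT-labelled heads. All KO-labelled heads were higher than all WT-labelled heads, by at least 0.03. The difference was +0.16 (SE 0.06, 95% confidence interval 0.02 to 0.30), 1.12 times the WT-labelled signal, with an unadjusted limma p of 0.030 and an adjusted p of 0.791. The unadjusted p was above 0.05 under 8 of the 21 alternatives, at 0.0998 with Xist signal as a covariate, 0.075 with the replicate block, 0.074 with median centring, 0.0503 with quantile normalization and 0.060 to 0.094 without KO 1, KO 2, WT 1 or WT 2.

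Keratins 8 and 18 pair to form the first keratin filaments of embryonic epithelia. Their genes lie next to each other on chromosome 15 in GRCm38.p6, with 0 protein-coding genes between them. Krt8 (probe set 10432918) read 9.57, 9.72 and 9.64 in KO-labelled heads and 9.46, 9.58 and 9.91 in WT-labelled heads. The KO-labelled values all lay inside the range of the WT-labelled ones. The difference was −0.01 (SE 0.10, 95% confidence interval −0.23 to 0.22; limma adjusted p = 0.996). Krt18 (probe set 10427075) read 9.14, 9.46 and 9.43 in KO-labelled heads and 9.27, 9.38 and 9.63 in WT-labelled heads. KO 1 was the lowest head and WT 3 the highest. The difference was −0.09 (SE 0.10, 95% confidence interval −0.32 to 0.14; limma adjusted p = 0.925). Its sign, like that of Krt8, turned without WT 3 or without KO 1.

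**Figure D2:**
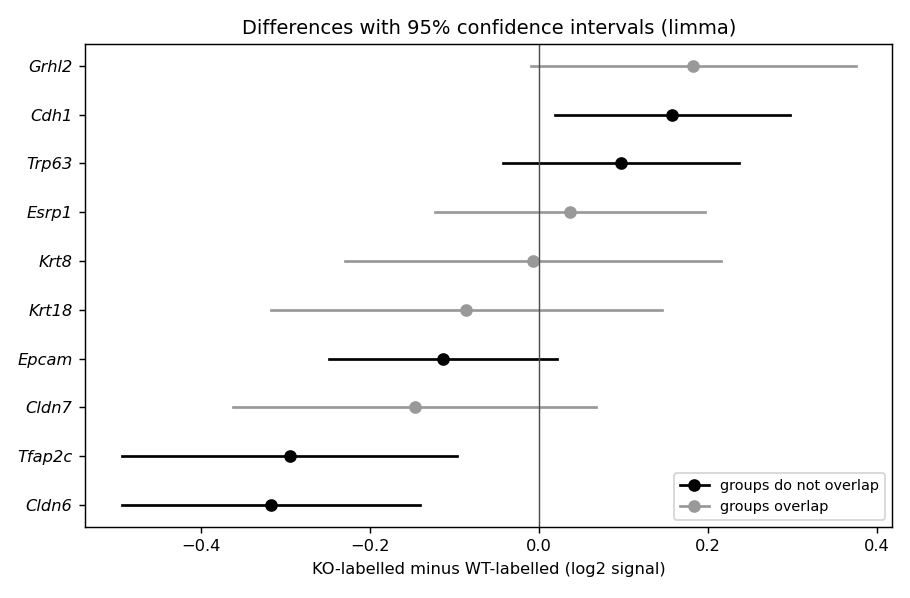
Difference in log2 signal, KO-labelled minus WT-labelled (horizontal axis), with the 95% confidence interval of the limma fit as a line, for the 10 epithelial genes ordered by size (n = 3 heads per group). Black marks the 5 genes whose groups do not overlap and grey the other 5, and the intervals of Cldn6, Tfap2c and Cdh1 do not reach 0.

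Of the 3 transcription factor genes, Tfap2c had the difference of greatest size. It encodes AP-2 gamma, a factor of surface ectoderm and trophectoderm. The probe set (10478997) read 8.11, 7.89 and 7.80 in KO-labelled heads and 8.33, 8.15 and 8.20 in WT-labelled heads. Every KO-labelled head was lower, with 0.04 between KO 1 and WT 2, the nearest heads. The difference was −0.30 (SE 0.09, 95% confidence interval −0.49 to −0.10), 0.81 times the WT-labelled signal, with an unadjusted limma p of 0.0076 and an adjusted p of 0.654. By ordinary least squares the unadjusted p was 0.0498 (adjusted p = 0.921). Tfap2c is the one gene of the 10 on chromosome 2, which also carries Tasp1, with 376 protein-coding genes between them in GRCm38.p6. Whether this shared chromosome has a part in the Tfap2c signal was not tested. Without the genes of that chromosome 4 of the remaining 9 epithelial genes had groups that did not overlap, against 10.7% of the remaining probe sets.

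Trp63 (probe set 10434815, chromosome 16) encodes p63, the factor that commits surface ectoderm to stratified epidermis. It read 8.51, 8.45 and 8.41 in KO-labelled heads and 8.32, 8.37 and 8.40 in WT-labelled heads. KO 3 exceeded WT 3 by only 0.0073, so the groups were barely apart. The difference was +0.10 (SE 0.06, 95% confidence interval −0.04 to 0.24; limma adjusted p = 0.874). The annotation of this probe set covers several Trp63 transcripts, and isoforms are not resolved here.

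Grhl2 (probe set 10423770, chromosome 15) encodes a grainyhead-like factor that activates Cdh1 and claudin genes in mouse epithelia. It read 7.51, 7.65 and 7.50 in KO-labelled heads and 7.28, 7.30 and 7.53 in WT-labelled heads. WT 1 and WT 2 were below all KO-labelled heads, and WT 3 lay above KO 1 and KO 3. The difference was +0.18 (SE 0.09, 95% confidence interval −0.01 to 0.37), 1.13 times, the highest ratio of the 10 genes, with a limma adjusted p of 0.829. Without WT 3 it was +0.26 (adjusted p = 0.490).

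Esrp1 (probe set 10511560, chromosome 4) encodes a splicing factor that keeps epithelial isoforms. It read 8.49, 8.56 and 8.50 in KO-labelled heads and 8.49, 8.36 and 8.59 in WT-labelled heads, and the KO-labelled values all lay within the WT-labelled range. The difference was +0.04 (SE 0.07, 95% confidence interval −0.12 to 0.20; limma adjusted p = 0.956).

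The genes were also set against each other within each head, in 5 pairs of like role, by subtracting the log2 signal of one gene from that of the other. This shows unequal differences between the 2 genes and not which of them differs. Epcam minus Cdh1 was −0.35, −0.27 and −0.22 in KO-labelled heads and 0.01, 0.0006 and −0.03 in WT-labelled heads. The groups did not overlap, with a mean of −0.28 ± 0.07 in KO-labelled embryos and −0.01 ± 0.02 in WT-labelled embryos (SD, n = 3 each). Trp63 minus Tfap2c was 0.41, 0.56 and 0.61 in KO-labelled heads and −0.01, 0.22 and 0.20 in WT-labelled heads. Grhl2 minus Esrp1 averaged −0.97 ± 0.05 over the KO-labelled and −1.11 ± 0.09 over the WT-labelled embryos (SD, n = 3 each), also without overlap. For each of these 3 pairs the exact permutation test over heads gave a two-sided p of 0.1, the smallest that 3 against 3 heads can give, and 0.167 after Benjamini-Hochberg adjustment over the 5 pairs. For Epcam minus Cdh1 and Trp63 minus Tfap2c this p was fixed beforehand. Each gene of these pairs stood apart by itself, in opposite directions, so their difference had to stand apart too and is no further result. For Grhl2 minus Esrp1 the exact permutation p was 0.3 without KO 2 (+0.12) and 0.2 without WT 1 (+0.09). The groups of that pair still did not overlap in these settings. The groups overlapped in Cldn6 minus Cldn7, where the KO-labelled and WT-labelled means differed by −0.17 (exact permutation p = 0.4), and in Krt8 minus Krt18, where they differed by +0.08 (exact permutation p = 0.3). Both of these values varied with the head left out. Cldn6 minus Cldn7 differed by −0.04 without WT 1, −0.09 without KO 1 and −0.28 without WT 2, where the groups no longer overlapped (exact permutation p = 0.1, the smallest that 3 against 2 heads can give), and Krt8 minus Krt18 by 0.017 without KO 1 and 0.12 without KO 3.

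**Figure D3:**
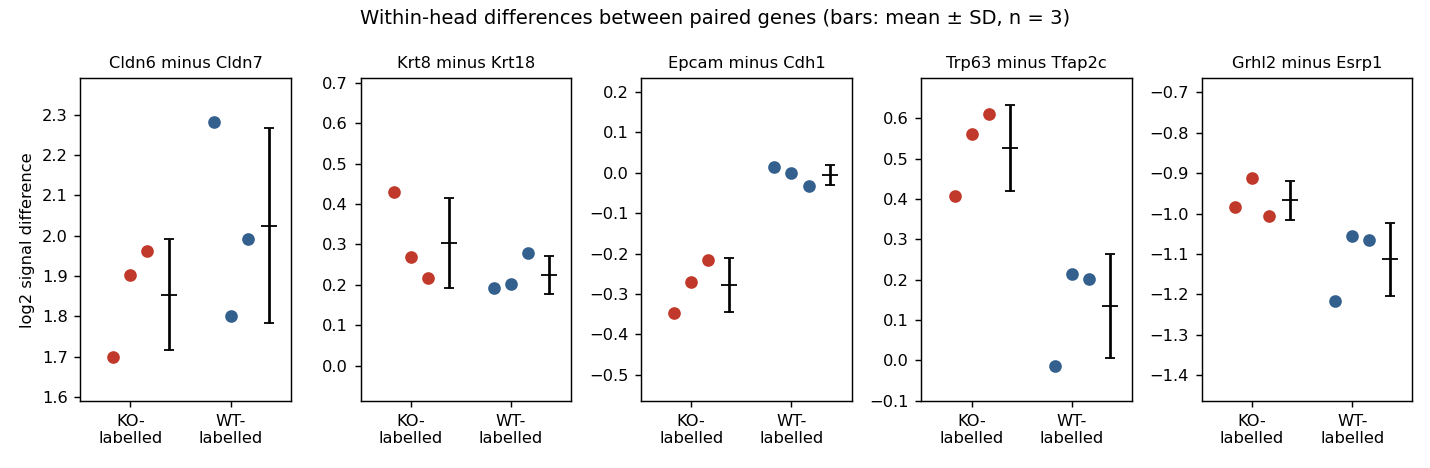
Log2 signal of one gene minus that of its pair within the same head (vertical axes, each spanning the same width) for 5 pairs, in 3 KO-labelled heads (left) and 3 WT-labelled heads (right), with mean ± SD as a bar. The groups do not overlap for Epcam minus Cdh1, Trp63 minus Tfap2c and Grhl2 minus Esrp1. In Epcam minus Cdh1 and Trp63 minus Tfap2c this follows from the single genes, which stand apart in opposite directions.

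The genes also varied between heads of the same label. WT 3 had the highest signal of all 6 heads for 6 of the 10 genes, Cldn6, Cldn7, Epcam, Krt8, Krt18 and Esrp1, and the highest of the WT-labelled heads for 9. Averaged over the 10 genes, its signal lay 0.14 above the mean of each gene over the heads, where those of the remaining 5 ran between −0.04 and 0.0076. By contrast, WT 1 was the lowest of all 6 heads for 4 genes, Cldn7, Krt8, Trp63 and Grhl2, and yet the highest for Tfap2c. KO 1 was the lowest for Cldn6, Epcam and Krt18 and the highest for Trp63. KO 2 was the highest for Cdh1 and Grhl2. In none of the 6 heads did all 10 genes lie on the same side of their means.

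**Figure D4:**
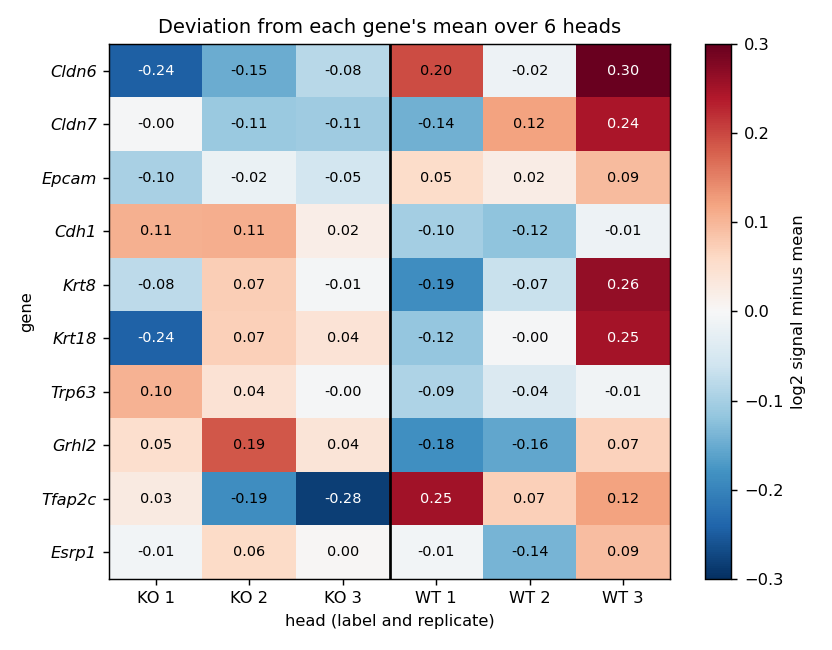
Log2 signal of each of the 10 epithelial genes (rows) in each head (columns, 3 KO-labelled left of the line and 3 WT-labelled right of it), as the deviation from the mean of that gene over the 6 heads, in colour and in figures. WT 3 is above the mean for 8 of the 10 genes. In all 3 KO-labelled heads Cldn6, Cldn7 and Epcam are below their means, and Cdh1 and Grhl2 are above theirs.

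Other epithelial genes were read from 5 lists, 72 genes in all, of which 68 had a probe set with 1 symbol and each gene was read by its brightest one. None passed the test (limma adjusted p from 0.791 to 0.999), with 1 higher and 2 lower at an unadjusted p under 0.05. The median difference was −0.01, as over all genes. Of the 68 genes 26 were higher and 42 lower, where 8536 of all genes were higher and 11402 lower. In 6 of the 68 genes (8.82%) the groups did not overlap, against 11.1% of all genes read in the same way. Averaged over these 68 genes, WT 3 lay 0.0071 above the mean of each gene, where the other heads lay between −0.02 and 0.04.

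By role, the 16 tight junction genes read had 6 higher and 10 lower values in KO-labelled heads. Lsr, an organiser of tricellular contacts, differed by −0.11, the claudin gene Cldn8 by +0.10 and Marveld2, which encodes tricellulin, by +0.09. Of the 16 genes of adherens junctions and desmosomes, 6 were higher and 10 lower. Jup, which encodes plakoglobin, differed by −0.15, the desmosomal cadherin gene Dsc2 by +0.18 and Cdh3, which encodes P-cadherin, by −0.15. In 3 of the 16 genes, 2 higher and 1 lower, the groups did not overlap (18.8%, against 11.1% of all genes). Jup and Dsc2 were among these, while the groups of Cdh3 overlapped.

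The other keratins, 9 in all, were mostly dim, and 4 of them (Krt13, Krt17, Krt20 and Krt23) lay below the 95th percentile of the receptor genes. Krt13, Krt20 and Krt23 had the smallest p-values, with differences between −0.14 and −0.08. The basal keratins of stratified skin, Krt5 and Krt14, had 6.67 and 6.85 in KO-labelled heads and 6.66 and 6.91 in WT-labelled heads.

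Of 15 epithelial regulators, 6 were higher and 9 lower. Gata3, a factor of skin and placodes that also lies on chromosome 2, differed by +0.15 with every KO-labelled head higher (8.72 ± 0.02 and 8.57 ± 0.07, SD, n = 3 each; limma adjusted p = 0.791). Msx2, a homeobox target of BMP signalling, differed by −0.20 and Dlx3, a homeobox gene of epidermis, by −0.07, and the groups overlapped for both. Of the relatives of the listed factors, Tfap2a differed by −0.02 (95% confidence interval −0.19 to 0.15) and Tfap2b by −0.05 (−0.23 to 0.12). Grhl3 differed by −0.00069 (−0.28 to 0.27) and Esrp2 by −0.05 (−0.21 to 0.12). The Grhl3 interval includes the Grhl2 difference of +0.18, and the Esrp2 interval the Esrp1 difference of +0.04. Those of Tfap2a and Tfap2b do not include the Tfap2c difference of −0.30. Whether relatives differed from the listed factors was not tested. Among 12 genes of the epithelial membrane and its proteases, Spint2, an inhibitor of membrane serine proteases, differed by −0.16 (8.50 ± 0.02 and 8.66 ± 0.07, SD, n = 3 each; limma adjusted p = 0.791). The tetraspanin gene Cd9 differed by −0.12 and Rab25, a regulator of epithelial membrane recycling, by −0.08.

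**Figure D5:**
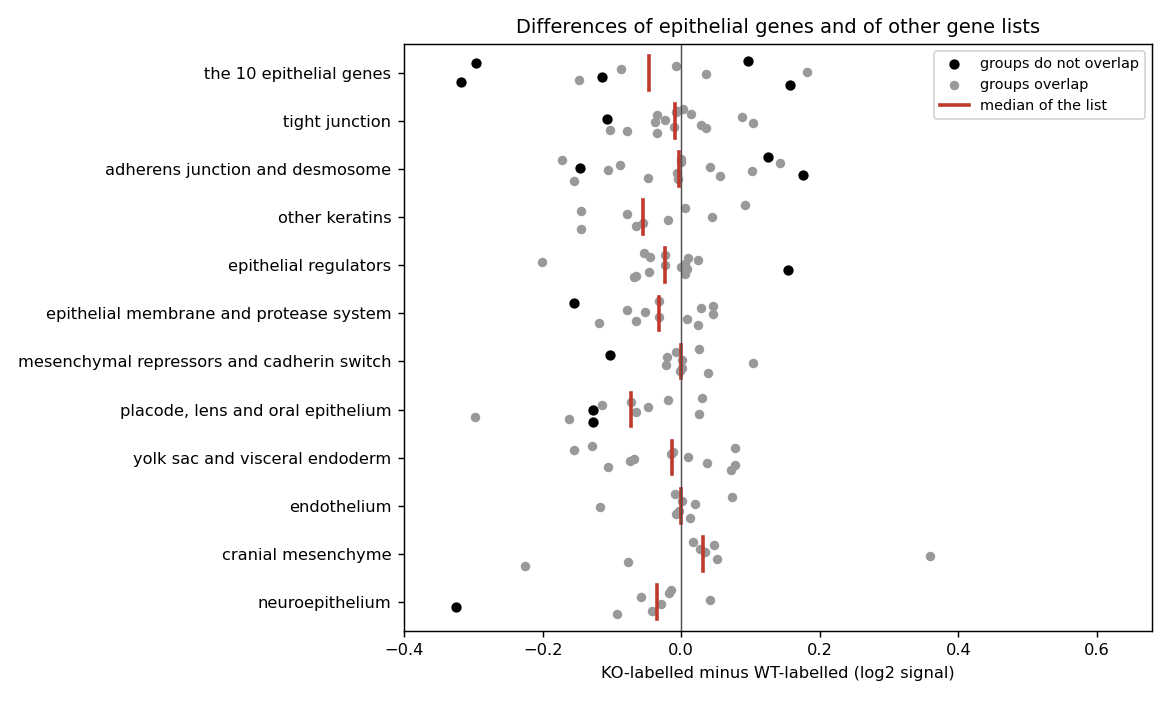
Difference in log2 signal, KO-labelled minus WT-labelled (horizontal axis), of each gene (points) in the set of 10 epithelial genes and in 11 other lists (rows), with the median of a list as a red line. Black marks genes whose groups do not overlap. The 10 epithelial genes hold 5 black points, on both sides of 0, and 0 genes in any list passed the test.

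Repressors of the epithelial state and genes of the mesenchymal cadherin switch were read beside them. Zeb1 differed by −0.01 (95% confidence interval −0.11 to 0.10), Zeb2 by +0.03 (−0.11 to 0.16), Snai1 by −0.02 (−0.18 to 0.14) and Snai2 by +0.10 (−0.06 to 0.26). Zeb2 and Snai1 lie on chromosome 2. Cdh2, which encodes N-cadherin, differed by −0.001 and Cdh11 by +0.04. Vim, which encodes the intermediate filament protein of mesenchyme and neuroepithelium and lies on chromosome 2, differed by −0.10, with every KO-labelled head lower (limma adjusted p = 0.700). None of these passed, and 5 of the 10 were higher and 5 lower.

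Markers of other tissues that the dissected piece could hold were read in the same fit, and 0 of them passed (limma adjusted p of 0.296 or more). Over all genes, each read by its brightest probe set, 8536 were higher and 11402 lower. Of 11 genes of placodes, lens and oral epithelium, 2 had higher and 9 had lower signals, and the median was −0.07. This list does not mark these tissues alone, and Sox2 in it was brighter than 96.5% of probe sets. Dlx5 differed by −0.30, Foxe1, a factor of oral ectoderm, by −0.13 and the lens crystallin gene Cryaa by −0.13. In Foxe1 and Cryaa the groups did not overlap, which is 18.2% of the list, against 11.1% of all genes. Averaged over this list, the KO-labelled heads lay between −0.06 and −0.02 and the WT-labelled heads between 0.02 and 0.08 from the mean of each gene. Its part in the epithelial differences was not tested.

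Of 12 yolk sac and visceral endoderm genes, 5 lay below the 95th percentile of the receptor genes, among them Afp (5.99 in the KO-labelled group, 5.92 in the WT-labelled group) and Ttr (5.20 in the KO-labelled group, 5.33 in the WT-labelled group). List averages ran from −0.07 to 0.04 in KO-labelled heads and from −0.04 to 0.06 in WT-labelled heads. Rbp4 differed by −0.15 and Amn by −0.11. The 8 endothelial genes had a median of −0.0009, with Esam at −0.12, Tek at +0.07 and Kdr at +0.02. The 8 genes of cranial mesenchyme had a median of +0.03, with Dcn at +0.36, Col1a1 at −0.23 and Col1a2 at −0.08, and the list average was 0.19 in KO 1 and between −0.10 and 0.01 in the other heads. The 8 neuroepithelial genes had a median of −0.04. Lhx2, on chromosome 2, was at −0.33 (limma adjusted p = 0.296), Fabp7 at −0.09 and Pax6, also on chromosome 2, at −0.06.

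The arrays were alike in scale, with medians between 7.35 and 7.45. The Tasp1 signal, of probe set 10488090, read 8.63, 8.63 and 8.50 in KO-labelled heads and 8.10, 8.45 and 8.49 in WT-labelled heads, higher by 0.24. Its place with respect to the deletion is unknown here, so this signal is no check of the labels. Xist read 12.3 in WT 2 and at most 5.24 elsewhere, and the Y-linked Kdm5d was low in WT 2 alone (5.48), so the groups were not matched for sex. With Xist signal as a covariate the difference was −0.41 for Cldn6, −0.34 for Tfap2c, −0.13 for Epcam, +0.13 for Cdh1, +0.15 for Grhl2 and +0.10 for Trp63, and 0 of the 10 genes passed. Since Xist was high in WT 2 alone, this fit is close to leaving that head out, where Cldn6 differed by −0.40. Sex and that head cannot be told apart here.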

How the data were processed

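RNA of 6 single-embryo heads (3 KO-labelled, 3 WT-labelled) was read on Affymetrix arrays. The deposited table holds log2 signals, 1 per probe set and array, made by the authors. Per the submitters' processing notes, Affymetrix Expression Console and MAS5 were used, and the background correction, scaling and summary method are not given in the sources used here. Values of the table ran from 2.73 to 14.4 with like medians, so they were used as deposited, with no pseudocount and no further scaling.

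Of 35556 probe sets, 21789 had 1 gene symbol in the platform annotation and were tested, 1621 had several symbols and 12146 were unnamed. No brightness filter was applied. limma 3.58.1 (R 4.3.3; linear fit, eBayes with trend on the mean, two-sided p adjusted by Benjamini-Hochberg over all 21789, threshold 0.05) compared the groups. The procedure was also run on data simulated from the fitted variances with independent normal errors. Such data cannot show whether that model holds for these arrays. Gene pairs were tested by exact permutation over heads. The number of arrays limits the precision. The genes and lists were chosen with earlier results of these data known. All 10 genes, and the 3 genes of each other list with the smallest p, were named by rule, and other named genes (Krt5, Krt14, Krt17, Tfap2a, Tfap2b, Grhl3, Esrp2, Zeb1, Zeb2, Snai1, Cdh2, Afp, Ttr) were chosen after their values were seen. Some genes of the lists are not reported here. Chromosomes and promoter sequences are those of GRCm38.p6. The labels call the heads biological replicates. Alternatives were other normalizations, added constants, filters, variance models, Xist as a covariate, a replicate block and each head left out. Array quality weights and leaving out chromosome 2 were added after seeing the data. Figures were drawn with matplotlib 3.10.9.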

Additional observations from a re-analysis of the deposited data

How the results depend on the processing

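The count of 0 epithelial genes passing held under all 21 alternatives (lowest adjusted p 0.329, for Cldn6 without WT 2), and 203 of 209 gene values kept their direction. With all heads, the count of genes whose groups did not overlap was 5 of 10, or 4 of 9 without chromosome 2, which carries Tfap2c. In these settings 10.7% to 12.9% of the probe sets or genes read did not overlap. With 1 head left out the count was 5 or 6, where 17% to 25.5% of all probe sets did not overlap. The 6 values that turned were those of Esrp1 with Xist signal as a covariate (−0.027) and without WT 2 (−0.024), of Krt8 without KO 1 (+0.03) and without WT 3 (+0.12), and of Krt18 without KO 1 (+0.01) and without WT 3 (+0.017), and the cause was not tested. The Xist covariate and leaving out WT 2 are nearly the same fit, because Xist was high in that head alone. With 1 head left out, Esrp1 ranged from −0.024 to 0.092, Krt8 from −0.10 to 0.12 and Krt18 from −0.17 to 0.017. Over all genes the count of 0 became 2 with the mean of the probe sets of a gene, 9 with all probe sets, 1 with array quality weights and 0 to 8 with 1 head left out (8 without KO 1, 1 without WT 1). With the replicate block, 0 probe sets and 0 of the 10 genes passed. Heads of the same number did not deviate together (correlations of −0.29 to −0.14 over probe sets), so the numbers were not used as pairs. In the pair tests with 1 head left out, where an exact test cannot reach 0.05, Epcam minus Cdh1 ranged from −0.30 to −0.24, Trp63 minus Tfap2c from 0.32 to 0.45, Grhl2 minus Esrp1 from 0.09 to 0.17, Cldn6 minus Cldn7 from −0.28 to −0.04 and Krt8 minus Krt18 from 0.017 to 0.12. With 3 heads per group, the 95% confidence intervals of 7 of the 10 genes included 0.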
